A study of Mus musculus with 2 samples.

Results

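The genes of 7 solute carrier families that move amino acids across membranes, Slc1, Slc3, Slc6, Slc7, Slc36, Slc38 and Slc43, were described by their transcript levels in embryonic stem cells. Members were taken by symbol alone: every protein-coding gene whose name starts with 1 of these family names, in GENCODE M21 gene names, was kept whatever its level. This gave 64 of the 47643 rows of the count files. One of them, Slc7a6os, lies beside Slc7a6 on the opposite strand and encodes an unrelated protein, so 63 carrier genes remain. The series held 2 sequencing libraries, called replicate 1 and replicate 2, of polyadenylated RNA from the mouse E14 line, which derives from blastocysts of the 129/Ola background. Both are labelled as carrying a double knockout of Ago1 and Ago2, whose products are effectors of microRNA silencing. Cells grew on gelatine (0.2%) in DMEM with 15% serum and LIF (100 U/mL), a cytokine that maintains self-renewal. Cells with intact Argonaute genes were not analysed here, so each level below describes the double knockout cells and none measures an effect of the deletion. The labels do not state whether the libraries came from separate clones or cultures, and the spread between them may be technical.

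Amino acid carriers work in layers. Sodium-coupled carriers such as those of Slc1, Slc6 and Slc38 load the cell with abundant neutral amino acids and glutamate, and exchangers of Slc7 trade these for essential and cationic ones. Many Slc7 carriers are light chains that reach the surface only with a glycoprotein heavy chain of Slc3, whereas some Slc36 and Slc38 carriers sit on lysosomes and release amino acids to the cytosol. Growing cells depend on this supply, and mouse embryonic stem cells are known for a high demand for threonine and glutamine.

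Replicate 1 held 34798975 gene counts and replicate 2 held 29789560. The carriers took 110177 and 96876 of these, or 0.317 and 0.325%. Levels of different genes are compared in TPM, counts divided by the merged exon length of the gene and scaled to the same sum in each library. A carrier was called on at 1 CPM or more (CPM being a gene's counts scaled to the library total only) in both libraries, silent at 3 counts or fewer in each, and low in between. That floor of 3 counts was worth 0.0862 CPM in the deeper library, replicate 1, and 0.101 CPM in the other. It is the rule of thumb for what a count of 0 allows, and the two-sided exact 95% Poisson limit of a 0 was higher, at 0.106 CPM in replicate 1 and 0.124 CPM in replicate 2, both for counting error only. For 3 counts the same upper limit was 0.252 CPM in replicate 1 and 0.294 CPM in replicate 2. Values are given for replicate 1 and then replicate 2, or as mean ± SD (n = 2). The 8 listed stem cell markers were on, from Klf4 (53.3 and 47.0 TPM) to Dppa5a (13780 and 12192 TPM). Of 36 markers of 6 other cell types 8 were on, of which Thy1 (22.8 and 21.2 TPM) and Lrp2 (13.5 and 14.7 TPM) were the highest. Each list held 6 genes. Those on were Thy1 and Col1a1 for fibroblasts, Lrp2 and Vil1 for kidney and gut, and Slc17a7 and Syp for neurons and astrocytes. Gata4 was on for extraembryonic endoderm, Ascl2 for trophoblast, and 0 genes for liver. Within the same lists, the liver gene Alb, the fibroblast genes Col3a1 and Lum and the kidney gene Umod had no count.

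Of the 63 carriers 34 were on (54.0%), 16 were low and 13 were silent (20.6%). By the same rule 58.0% of the 21620 protein-coding genes were on, 13.6% were low and 28.5% were silent. No count at all was found for 6 carriers (9.52%, against 20.3% of protein-coding genes), Slc6a11, Slc6a18, Slc6a20b, Slc7a12, Slc7a13 and Slc38a11. The carriers that were on covered a wide range, from Slc6a5 and Slc36a4 below 1 TPM to Slc38a4 above 200 TPM, with a median of 10.2 TPM against 17.4 TPM for all protein-coding genes that were on. At least 100 TPM in both libraries was reached by 7 carriers (11.1%, against 5.62% of protein-coding genes) and at least 10 TPM by 17 (27.0%, against 36.5%). Those 7 were Slc38a4, Slc7a3, Slc38a2, Slc6a8, Slc3a2, Slc6a6 and Slc7a5, in falling order of mean TPM. The 4 highest of them held 48.3 and 49.7% of the summed carrier TPM. Between neighbours in this order the 2 libraries' values did not overlap, except for Slc6a6 (122 and 116 TPM) and Slc7a5 (114 and 119 TPM), which did. The order rests on the gene length used, since Slc38a2 came first when the longest coding transcript replaced the merged exons.

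**Figure D1:**
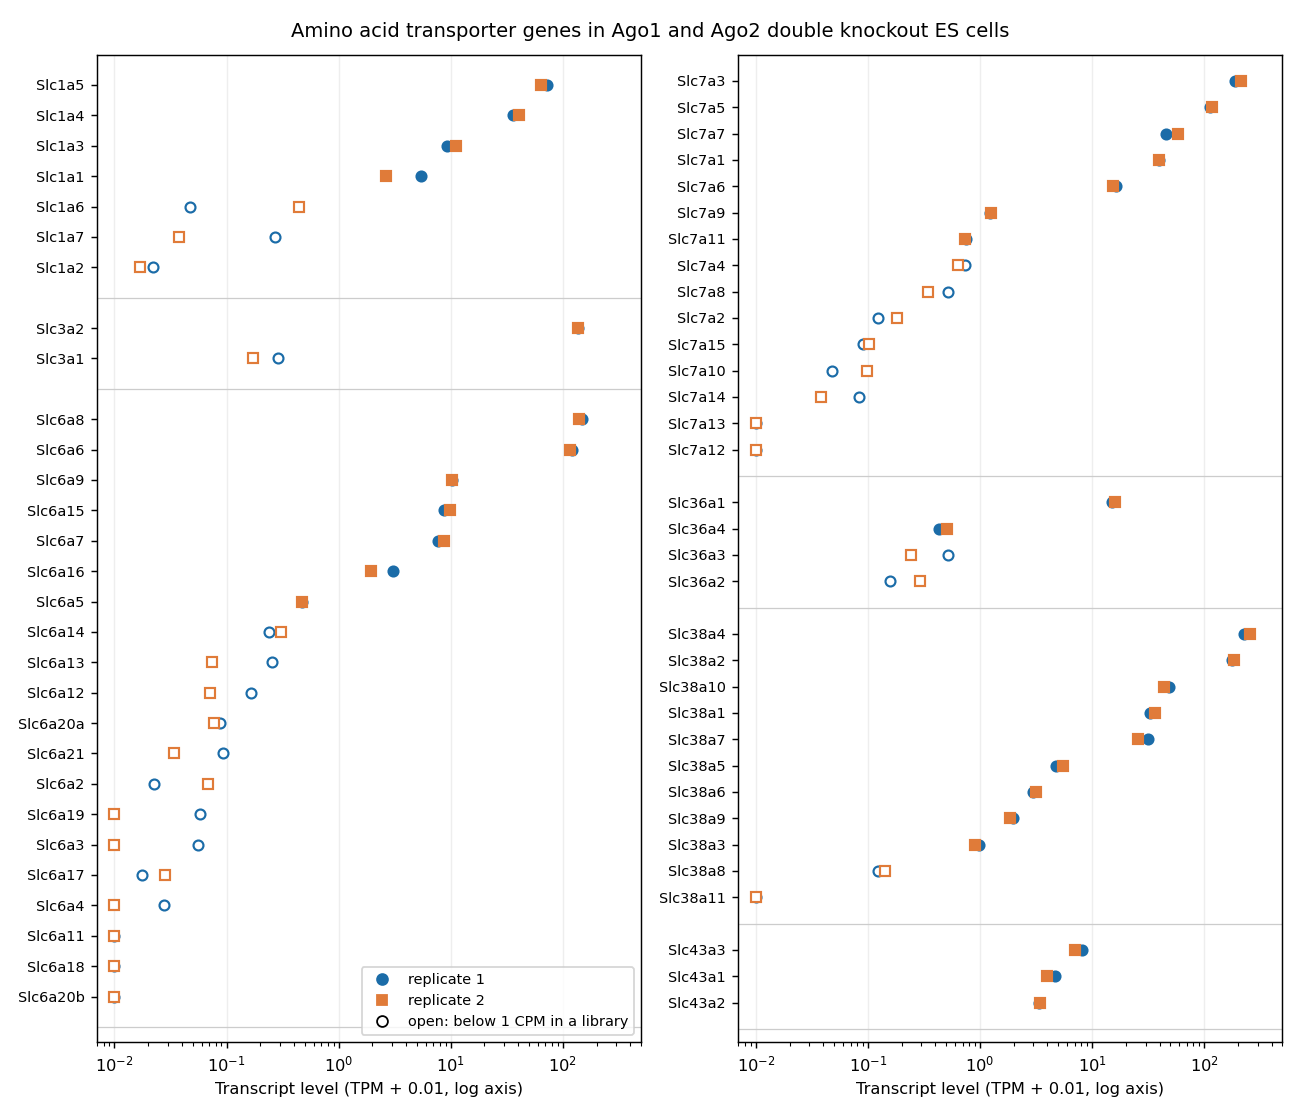
Transcript level of the carrier genes reported, by family (TPM + 0.01 on a log axis), with replicate 1 as circles and replicate 2 as squares; open symbols mark genes below 1 CPM in at least 1 library. The 2 libraries lie close together for most genes that were on. Slc1a1 (5.38 and 2.64 TPM) and Slc6a16 (3.07 and 1.92 TPM) are examples that lie farther apart. Members of 1 family can stand far apart, as in Slc3, where Slc3a2 had 136 and 137 TPM and Slc3a1 0.280 and 0.163 TPM.

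By family, 9 of 11 Slc38 genes, 3 of 3 Slc43 genes, 4 of 7 Slc1 genes, 7 of 15 Slc7 genes, 8 of 21 Slc6 genes, 2 of 4 Slc36 genes and 1 of 2 Slc3 genes were on. Slc38 held the largest share of the summed carrier TPM, 34.6% ± 0.441. Slc7 held 27.4% ± 1.22, Slc6 19.5% ± 1.13, Slc3 8.73% ± 0.131 and Slc1 7.72% ± 0.317. Slc36 (1.06% ± 0.0204) and Slc43 (0.978% ± 0.0939) held little. With the longest coding transcript as gene length, Slc38 held 37.0%. With the median annotated coding transcript, which is a short fragment for genes such as Slc6a6 and Slc3a2, it held 20.8% and Slc6 came first with 37.8%.

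**Figure D2:**
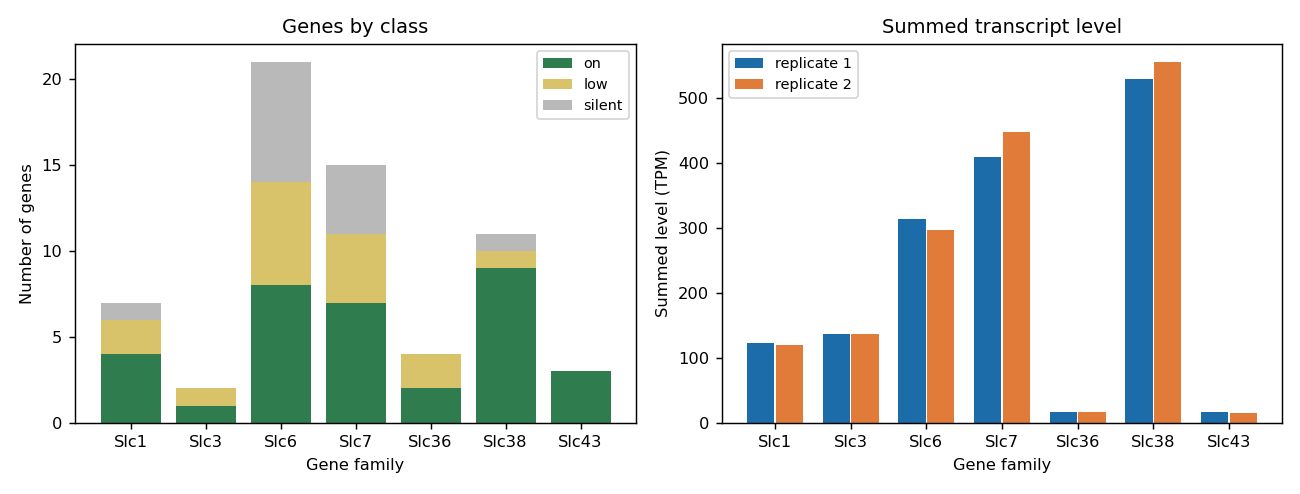
Left, number of carrier genes of each family that were on, low or silent; right, TPM summed over the genes of each family in replicate 1 and replicate 2. Slc6 has the most genes, 8 of 21 on, and Slc38 the highest sum, 529 and 555 TPM.

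Of the 11 Slc38 genes 9 were on, and the system A genes led them. System A carriers take up small neutral amino acids such as alanine and glutamine together with sodium. Slc38a4 (chr15:96994820-97055956, minus strand, GRCm38), an imprinted gene expressed from the paternal allele whose product also accepts cationic amino acids, had 228 and 254 TPM, the highest mean of all carriers. Slc38a2 (chr15:96687392-96699730, minus strand), which many cells raise when amino acids run short, had 177 and 183 TPM and the largest counts, 19699 and 17529. Slc38a1, a glutamine carrier of brain and proliferating cells, had 33.2 and 36.5 TPM. These 3 genes form a row on chromosome 15, with gaps of 44.5 kb between Slc38a1 and Slc38a2 and 295 kb between Slc38a2 and Slc38a4. The mean level of Slc38a4 was 1.34 times that of Slc38a2 with merged exons and 0.766 times with the longest transcripts, so their order is not fixed.

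The bases before the starts of Slc38a4 and Slc38a2 are shown because these neighbours had similar levels and very different CpG content, CpG dinucleotides being the sites of DNA methylation. The sequences are RefSeq promoter windows of GRCm38.p6, trimmed to the part before annotated exons, on the minus strand, and capitals mark each CpG. They were chosen after the levels were seen. Slc38a4 has 3 listed starts, of which the most upstream is used here, and Slc38a2 has 1. Which start these cells use was not tested. Slc38a4 (chr15:97055957-97056206, 3 CpG in 250 bases) and Slc38a2 (chr15:96699731-96699978, 30 CpG in 248 bases) read as follows.
Slc38a4: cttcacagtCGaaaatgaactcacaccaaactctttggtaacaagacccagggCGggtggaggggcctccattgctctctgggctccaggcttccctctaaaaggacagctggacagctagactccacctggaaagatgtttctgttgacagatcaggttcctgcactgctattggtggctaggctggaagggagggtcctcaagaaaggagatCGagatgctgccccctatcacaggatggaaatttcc
Slc38a2: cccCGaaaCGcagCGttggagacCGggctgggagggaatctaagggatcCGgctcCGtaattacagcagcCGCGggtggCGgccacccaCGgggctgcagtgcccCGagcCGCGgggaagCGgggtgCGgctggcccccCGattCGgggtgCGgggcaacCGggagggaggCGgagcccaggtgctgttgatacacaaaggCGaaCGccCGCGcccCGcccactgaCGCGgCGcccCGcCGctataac

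Most other Slc38 genes were on at lower levels. Slc38a10, a little studied carrier, had 48.1 and 43.6 TPM, and Slc38a7, which exports glutamine and asparagine from lysosomes, had 31.6 and 25.5 TPM. Slc38a9, the lysosomal carrier that signals arginine to mTORC1, had 1.95 and 1.86 TPM from 410 and 336 counts spread over a long merged exon length of 16704 bases. The system N genes, whose products move glutamine, asparagine and histidine, were also on. Slc38a5 had 4.71 and 5.48 TPM and Slc38a3, the system N carrier of liver and kidney, 0.963 and 0.893 TPM. Slc38a6 had 2.96 and 3.14 TPM, but 22.8% of the 50-base stretches of its transcripts recur in other genes, so its value is uncertain. Slc38a8 had 5 and 5 counts and was low, and Slc38a11 had none.

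In the group of cationic carriers of Slc7, some of which bring in arginine, lysine and ornithine, a pair was on and the others were low. Slc7a3 (chrX:101079210-101086020, minus strand), a carrier best known from brain, had 189 and 212 TPM. Slc7a1 (chr5:148327410-148399904, minus strand), the widely expressed cationic carrier that also serves as the receptor of ecotropic murine leukaemia virus, had 39.5 and 39.4 TPM, a difference below the counting error. Slc7a3 thus stood 4.78 and 5.39 times above Slc7a1 per length, and 4.35 times with the longest transcripts. With median transcript lengths the ratio was 0.868. In CPM, which ignores length, Slc7a3 had 258 and 292 and Slc7a1 165 and 165. Slc7a2, the carrier of liver and activated macrophages, had 13 and 17 counts. Slc7a4, which missed the call by 1 library (1.09 and 0.940 CPM), and Slc7a14 (9 and 3 counts) were low.

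The heteromeric carriers were on through 1 heavy chain. Slc3a2 (chr19:8706882-8723369, minus strand), which encodes the CD98 heavy chain, had 136 and 137 TPM. Its light chain gene Slc7a5 (chr8:121881150-121907694, minus strand), which encodes LAT1, the exchanger of leucine and other large neutral amino acids, had 114 and 119 TPM. Slc7a7 and Slc7a6 encode the exchangers y+LAT1 and y+LAT2, which release cationic amino acids in return for neutral ones and sodium. Slc7a7 had 46.0 and 58.6 TPM and Slc7a6 16.4 and 15.5 TPM. Slc7a5 stood 2.47 and 2.02 times above Slc7a7 with merged exons and 1.61 times with the longest transcripts, but at 0.506 of it with median lengths. Slc7a11, the cystine and glutamate exchanger xCT that feeds glutathione synthesis, was on in CPM (3.76 and 3.69) but had only 0.747 and 0.730 TPM over merged exons of 13922 bases. Slc7a8, the broader exchanger LAT2 of epithelia, was low with 32 and 18 counts. Slc7a10, the alanine, serine and cysteine exchanger of brain and fat, was silent with 1 and 2. Exons of Lrp3 on the opposite strand, a gene with 122 and 71 counts, overlap 17.9% of the exon bases of Slc7a10. The light chain genes of Slc3a2 summed to 178 and 194 TPM, so heavy chain transcripts stood at 0.763 and 0.706 of that sum. This ratio was 0.777 with the longest transcripts and 1.57 with median lengths, and transcripts do not measure protein.

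**Figure D3:**
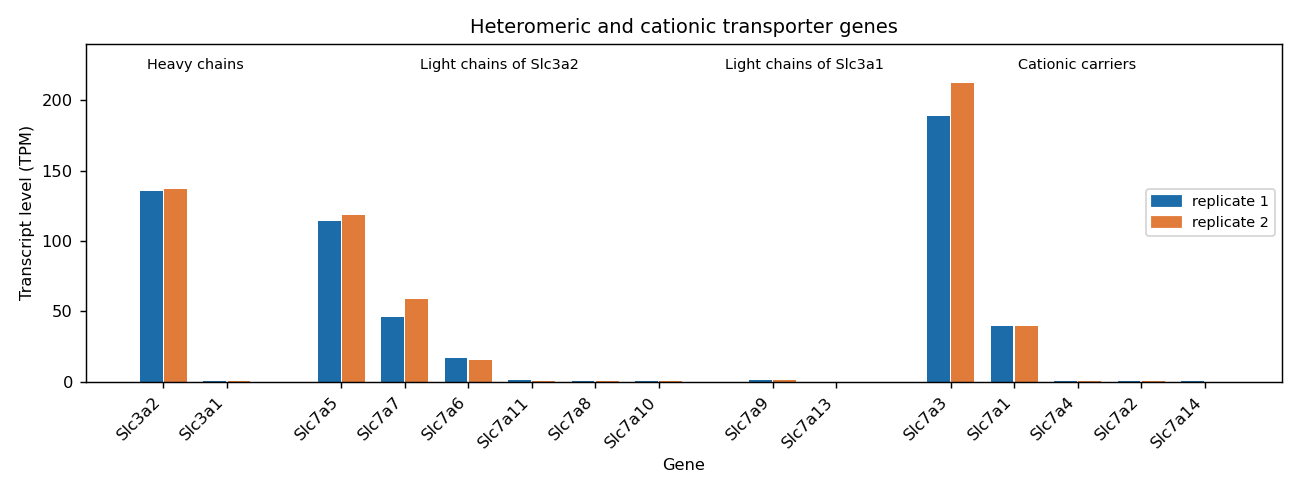
Transcript level in TPM (bars from 0) of the heavy chain genes, their light chain genes and the cationic carrier genes in replicate 1 and replicate 2. Slc3a2, Slc7a5 and Slc7a3 stand above 100 TPM in both libraries. The bars of Slc3a1, Slc7a8, Slc7a10, Slc7a13, Slc7a2, Slc7a4 and Slc7a14 are near 0. So are those of Slc7a11 (0.747 and 0.730 TPM) and Slc7a9 (1.22 and 1.24 TPM), which were on in CPM.

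The second heavy chain had almost no reads. Slc3a1 encodes rBAT, the partner in kidney and gut of the cystine carrier encoded by Slc7a9, and had 8 and 4 counts. Of its exon bases 26.5% overlap exons of Prepl on the opposite strand, a gene with 1886 and 1820 counts. Slc7a9 itself had 41 and 36 counts (1.22 and 1.24 TPM), just above the threshold for on. Slc7a13, the other known light chain of Slc3a1, had no count. Slc7a12 had no count and Slc7a15 had 3 and 3. In a bulk sample, fewer cells with a transcript and less transcript per cell cannot be told apart, which holds for every low level here.

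In Slc1 the neutral exchangers stood above the glutamate carriers. Slc1a5 (chr7:16781340-16798274, plus strand), which encodes the glutamine exchanger ASCT2, had 71.6 and 63.7 TPM. Slc1a4 (chr11:20302180-20332713, minus strand), which encodes the alanine, serine, cysteine and threonine exchanger ASCT1, had 35.8 and 40.9 TPM. Of the genes for high-affinity glutamate uptake, Slc1a3 (GLAST in astrocytes) had 9.29 and 11.2 TPM and Slc1a1 (EAAC1, which also takes up cysteine) had 5.38 and 2.64 TPM, higher in replicate 1. Slc1a2, the main glutamate carrier of the adult forebrain, was silent with 2 and 1 counts. Slc1a6, of Purkinje cells, had 1 and 10 counts and Slc1a7, of retina, 11 and 1, each above the floor in 1 library only.

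The Slc6 family held a very high pair. Of its 21 genes 8 were on, 6 were low and 7 were silent. Of all protein-coding genes 58.0% were on, 13.6% were low and 28.5% were silent. Slc6a8 (chrX:73673150-73682502, plus strand) had 149.9 and 139 TPM and Slc6a6 (chr6:91684053-91759066, plus strand) had 122 and 116 TPM. Their products carry creatine and taurine, which are not building blocks of protein. The pair held 86.7 and 86.1% of the Slc6 sum. A glycine carrier gene and a pair of proline carrier genes stood near 10 TPM. Slc6a9, the glycine carrier GlyT1, had 10.2 and 10.2 TPM, with 38.6% of its exon bases overlapping exons of other genes on the opposite strand, of which B4galt2 was the highest at 115 and 123 counts. Slc6a15, a carrier of branched-chain amino acids and proline, had 8.66 and 9.85 TPM, and Slc6a7, the proline carrier of synapses, had 7.66 and 8.63 TPM. The orphan gene Slc6a16 had 3.07 and 1.92 TPM and Slc6a5, the second glycine carrier GlyT2, 0.463 and 0.462 TPM.

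The monoamine carriers and the epithelial carriers of Slc6 had few or no reads. The noradrenaline carrier gene Slc6a2 had 1 and 4 counts, the dopamine carrier gene Slc6a3 had 2 and 0, and the serotonin carrier gene Slc6a4 had 1 and 0. Of the neutral amino acid carriers of kidney and gut, Slc6a19 had 3 and 0 counts and Slc6a18 had none. Cltrn, a surface partner of both in kidney, had none either. Slc6a11, a GABA carrier of astrocytes, and Slc6a20b had no count. Slc6a12, which carries betaine and GABA, had 6 and 2 counts, and the GABA carrier gene Slc6a13 had 9 and 2. Slc6a14, a broad carrier of neutral and cationic amino acids, had 10 and 11 counts, and Slc6a17 of synaptic vesicles had 1 and 2. Slc6a21 had 4 and 1 counts and the proline carrier gene Slc6a20a had 4 and 3. All of these were under 1 CPM. Of the transcript stretches of Slc6a20a 15.3% recur in Slc6a20b. Of those of Slc6a20b 7.76% recur in other genes. Exons of Sacm1l on the opposite strand, a gene with 1629 and 1594 counts, overlap 21.1% of the exon bases of Slc6a20b.

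The bases before the starts of Slc6a11 and Slc6a20b are shown for the same contrast among genes with no count, with capitals again marking each CpG. Slc6a11 (chr6:114130991-114131240, plus strand) has 25 CpG in 250 bases and Slc6a20b (chr9:123632566-123632788, minus strand) has 0 in 223 bases.
Slc6a11: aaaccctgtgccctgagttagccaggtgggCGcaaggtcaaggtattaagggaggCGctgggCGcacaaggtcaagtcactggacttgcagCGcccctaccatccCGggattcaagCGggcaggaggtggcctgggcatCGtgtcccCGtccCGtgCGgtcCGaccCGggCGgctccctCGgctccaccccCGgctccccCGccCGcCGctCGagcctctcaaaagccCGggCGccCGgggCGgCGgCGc
Slc6a20b: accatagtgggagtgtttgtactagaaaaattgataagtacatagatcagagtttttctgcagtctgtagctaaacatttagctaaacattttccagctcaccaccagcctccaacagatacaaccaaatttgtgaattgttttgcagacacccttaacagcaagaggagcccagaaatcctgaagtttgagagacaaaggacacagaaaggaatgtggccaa

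Slc36 and Slc43 were small contributors. Slc36a1, the proton-coupled carrier of lysosomes, had 15.1 and 16.1 TPM. Slc36a4 was the gene just above the threshold, with 35 and 35 counts or 1.01 and 1.17 CPM. Slc36a2 and Slc36a3, which adjoin Slc36a1 on chromosome 11, were low. Slc36a2, a proton-coupled carrier of glycine and proline, had 6 and 10 counts, and Slc36a3 had 15 and 6. Slc43a1, the uniporter LAT3 of large neutral amino acids, had 4.65 and 3.97 TPM, and Slc43a2, the related LAT4, had 3.36 and 3.42 TPM. Slc43a3, whose product carries purine bases rather than amino acids, had 8.08 and 7.08 TPM. Slc7a6os, the member that is no carrier, had 17.7 and 18.2 TPM, close to its neighbour Slc7a6, with which it shares no exon bases.

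Neighbouring carriers did not always share a class. Of 12 adjacent carrier pairs within 300 kb, which include 21 genes, 7 pairs fell in the same class and 5 did not. Same-class pairs included those of the Slc38 row, of Slc43a1 and Slc43a3, and of the silent genes Slc6a3, Slc6a18 and Slc6a19 on chromosome 13. Pairs with different classes included Slc36a2 with Slc36a1, Slc7a10 with Slc7a9, Slc6a16 with Slc6a21 and Slc6a20b with Slc6a20a. Some of these differences rest on a threshold. Slc6a20a had 4 and 3 counts against the floor of 3, and 15.3% of its transcript stretches recur in Slc6a20b. Slc7a9 was just on, at 1.18 and 1.21 CPM. The share of same-class pairs to expect from the class sizes alone was not computed.

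A promoter window was found for 45 of the 63 carriers. None was found for Slc7a3, Slc6a8, Slc6a6 and Slc7a5, which had at least 100 TPM in both libraries. In the 250 bases before the most upstream start, the median number of CpG was 13 for 23 carriers that were on, 6 for 12 that were low and 13.5 for 10 that were silent. For protein-coding genes with a window the medians were 16 for 9782 that were on, 7 for 2126 that were low and 2 for 4479 that were silent. The silent carriers ran from 0 in Slc6a20b to 25 in Slc6a11, and Slc6a4 and Slc6a17 had 18 each. The carriers that were on ran from 2 in Slc1a3 and Slc7a11 to 30 in Slc38a2 and Slc7a6. On and silent carriers thus overlapped in CpG number over most of their range, and no methylation was measured.

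**Figure D4:**
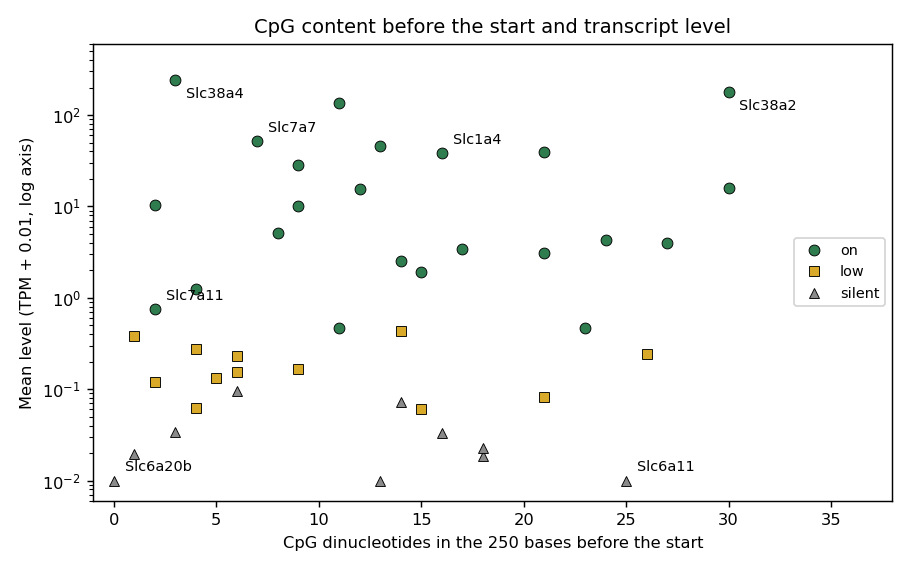
Number of CpG dinucleotides in the 250 bases before the most upstream start (x axis) and mean transcript level (TPM + 0.01, log y axis) for the 45 carriers with a window, by class. Among these 45, high and silent carriers both occur at few and at many CpG. Examples are Slc38a4 (3) and Slc38a2 (30) above 100 TPM and Slc6a20b (0) and Slc6a11 (25) with no count. No window was found for Slc7a3, Slc6a8, Slc6a6 and Slc7a5, also above 100 TPM.

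ATF4, the transcription factor of the amino acid starvation response, acts with C/EBP factors on the motif TGATGNAA, which reads TTNCATCA on the other strand. A search of the full windows, 250 bases before to 50 after each start, on both strands found it in 3.97% of all 32851 windows. Carriers without a window, among them Slc7a3, Slc6a8, Slc6a6 and Slc7a5, were not searched. The motif was found in 3 of 23 carriers that were on, 1 of 12 that were low (Slc6a21) and 0 of 10 that were silent. It was found in 2.74, 3.48 and 6.79% of protein-coding genes of the same classes. The 3 were Slc7a11, Slc1a4 and Slc7a7, and the stretches are shown because they hold these matches, in capitals. They lie at chr3:50443615-50443863, chr11:20332699-20332728 and chr14:54417927-54417956 of GRCm38.p6, all on the minus strand. Slc7a11 has a match on each strand, and its second overlaps the octamer ATTTGCAT of POU factors, which 1.74% of all windows hold. The match of Slc1a4 starts 4 bases before the start site and that of Slc7a7 starts 1 base before 1 of its 5 listed starts, and Slc7a7 has a second, TGATGAAA, farther upstream. A match in letters shows no binding, and the 3 genes differed widely in level, from 0.739 ± 0.0125 TPM for Slc7a11 to 52.3 ± 8.86 TPM for Slc7a7.
Slc7a11: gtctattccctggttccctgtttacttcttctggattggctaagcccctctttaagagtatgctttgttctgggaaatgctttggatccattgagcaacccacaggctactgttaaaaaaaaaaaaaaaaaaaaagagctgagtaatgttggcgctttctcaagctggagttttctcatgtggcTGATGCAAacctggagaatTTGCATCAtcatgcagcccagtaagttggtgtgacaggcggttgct
Slc1a4: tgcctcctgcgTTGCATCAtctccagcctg
Slc7a7: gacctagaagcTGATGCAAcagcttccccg

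Other genes of amino acid supply were read from listed sets. Between the libraries, edgeR's exact test called none of them, where it called 0.456% of all genes tested. The absence of calls among so few genes therefore says little about these sets. Of the 32 mTORC1 genes, 1 had an unadjusted p under 0.05 in that test. All 32 genes of amino acid sensing by mTORC1 were on, beside 58.0% of all protein-coding genes. They were led by the leucine sensor gene Sesn2 (149.9 and 152 TPM), Seh1l (121 and 119.7 TPM), a subunit gene of GATOR2, and the Rag GTPase gene Rraga (98.5 and 111 TPM). The lowest were Castor2 (4.99 and 4.13 TPM), an arginine sensor gene, and Nprl3 (5.06 and 4.99 TPM) of GATOR1. By the exact binomial test 5 were higher and 4 lower in replicate 1, where 12.9% of all genes tested were higher and 11.0% lower (23.9% in all). All 11 genes found of the starvation response were on, beside the same 58.0% of protein-coding genes. Asns, the asparagine synthetase gene, had 506 and 489 TPM and Atf4 484 and 451 TPM, both above every carrier per merged exon length, followed by Sesn2. Ddit3 (16.6 and 12.8 TPM) and Cebpb (2.90 and 4.85 TPM) were the lowest, and 4 of the 11 were higher and 1 lower in replicate 1 by the exact binomial test, beside the same 12.9 and 11.0% of all genes. Of 21 vesicular, mitochondrial and lysosomal carriers 13 were on, beside 58.0% of protein-coding genes. They were led by the mitochondrial aspartate and glutamate carriers Slc25a13 (132 and 133 TPM) and Slc25a12 (37.3 and 41.1 TPM) and the ornithine carrier Slc25a15 (21.6 and 22.7 TPM). Among vesicular glutamate carriers Slc17a7 was on (2.39 and 1.46 TPM), Slc17a6 had 2 and 0 counts and Slc17a8 had none. Of the vesicular monoamine carriers, Slc18a1 was low with 29 and 32 counts and Slc18a2 had none. Of the 17 tested, the exact binomial test found 2 higher and 2 lower in replicate 1, a share close to the 23.9% of all genes. A list of other carriers and their partners also held Slc7a6os, although it is no carrier. It had 9 genes, of which 6 were on, beside 58.0% of protein-coding genes. The exact binomial test called 0 of these 6, beside the same 23.9% of all genes. Bsg, the partner of monocarboxylate carriers, had 319.7 and 333 TPM, and Arl6ip5, which binds the product of Slc1a1, had 51.2 and 57.4 TPM.

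The error of these levels was read from the difference between the libraries. Of the 63 carriers 46 had at least 10 counts in total and were tested within all 19078 such genes. At a Benjamini-Hochberg adjusted p under 0.05, 16 carriers differed in a two-sided exact binomial test (34.8%, against 23.9% of all genes tested). Of these 7 were higher and 9 lower in replicate 1, against 12.9 and 11.0% of all genes. After a trend on GC content was removed, 13 carriers were called, 4 higher and 9 lower. The share of all genes called with that trend removed is not given here. The exact binomial test weighs counting error only and compares these libraries, not conditions. The carriers' median absolute log2 ratio was 0.18, against 0.16 for all genes tested. Where at least 100 counts were present it was 0.14 for 31 carriers, against 0.12 for all such genes.

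Slc1a1 differed most clearly. It had 559 counts (16.1 CPM) in replicate 1 and 236 counts (7.92 CPM) in replicate 2. The log2 ratio of replicate 1 over replicate 2 was 1.02 ± 0.11 (SE from counting alone), which passed the exact binomial test (adjusted p = 2.38e-19). By edgeR's exact test, which uses the spread of these libraries, it was the one carrier of 46 called (adjusted p = 0.0327), against 0.456% of all genes in either direction and 0.341% higher in replicate 1. Exons of 4430402I18Rik, on the opposite strand, cover 31.9% of its exon bases, and that gene had 5 and 6 counts; its part in the difference was not tested. Slc7a7 was lower in replicate 1, with a log2 ratio of -0.35 ± 0.05 called by the exact binomial test (adjusted p = 5.07e-13) but not by edgeR (exact test, adjusted p = 0.925). Exons of Oxa1l cover 232 of its 3315 exon bases on the opposite strand, and Oxa1l had 2774 and 2180 counts. Slc38a7 was higher in replicate 1 (0.30 ± 0.06, exact binomial adjusted p = 7.79e-07, edgeR 1), as was Slc6a16 (0.67 ± 0.22, exact binomial adjusted p = 0.0166, edgeR 1). Slc1a6 passed the exact binomial test with 1 and 10 counts (adjusted p = 0.0270) but not edgeR's exact test (0.685). The other 11 carriers called by the exact binomial test had log2 ratios from -0.28 to 0.16, among them Slc38a4 (-0.16 ± 0.02), Slc7a3 (-0.17 ± 0.02) and Slc38a2 (-0.05 ± 0.01). Slc3a2, Slc7a5 and Slc7a1 were not called, at -0.02 ± 0.03, -0.06 ± 0.03 and -0.000784. Removal of the GC trend left Slc38a2 without a call and with a changed sign (0.0025). It also brought Slc7a5 (-0.15, exact binomial adjusted p = 8.74e-06) and Slc3a2 (-0.08, adjusted p = 0.0193) past the threshold.

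**Figure D5:**
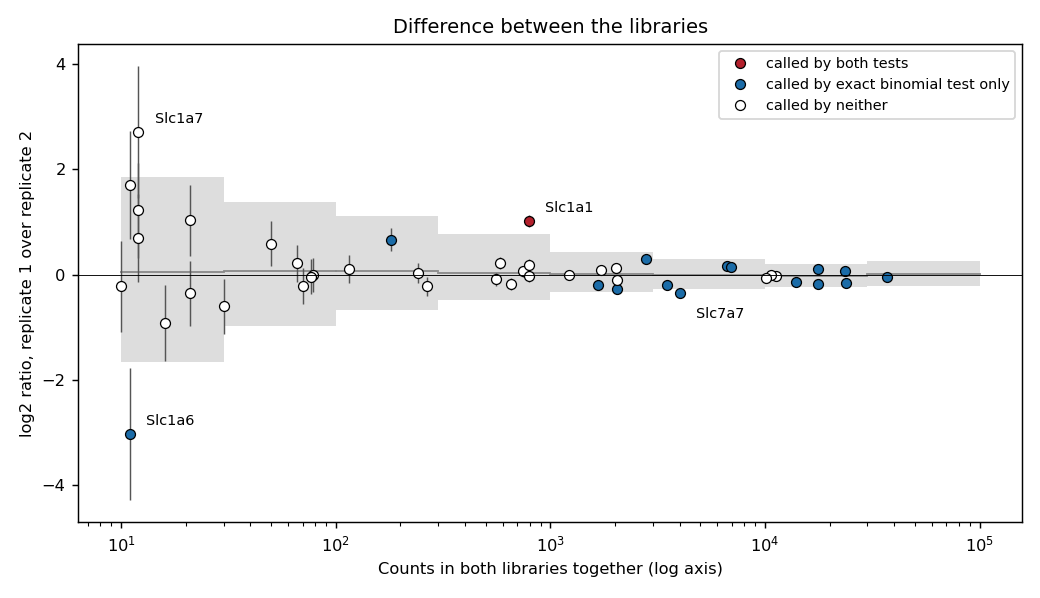
Log2 ratio of replicate 1 over replicate 2 (y axis, bars are counting SE) against total counts (log x axis) for the 46 carriers tested; grey bands span the central 95% of all genes of like counts and grey lines their medians. Slc1a1 (1.02), Slc1a6 (-3.03), Slc1a7 (2.72) and Slc7a7 (-0.35) lie outside the band, and the other 42 carriers lie within it.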

How the data were processed

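Polyadenylated RNA was profiled in 2 libraries of 1 genotype. Per the labels' protocols, Trizol RNA (1 ug total) entered a reverse-stranded TruSeq kit. Per the submitters' processing notes, the tools include STAR 2.4.2a and the builds mm10 and GRCm38. Each deposited file gives whole-number counts by Ensembl gene, not normalized, judged from the values. Which tool counted the reads, with which strand setting and annotation, is not given in the sources used here, so overlapping and related genes may share or lose reads. Exons of 14 of the 64 members overlap another gene, each on the opposite strand, and in 2 members at least 10% of 50-base stretches recur elsewhere.

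Of 47643 IDs 47224 were named with GENCODE M21. CPM used the total of gene counts, and TPM was computed from counts and merged exon lengths. Members, gene lists and the sequences shown were chosen with earlier results of these data known. Carriers were named with values or counts, except 1 that enters the counts and sums but is not reported here by itself, and from each list of other genes the highest 3 and lowest 2 by TPM were named; Slc17a6, Slc17a7 and Slc18a1 were added after their values were seen. Slc6a21 was missing from the functional grouping of carriers and was added after the values were seen. The libraries were compared by a two-sided exact binomial test at TMM library sizes (edgeR 4.0.16, factors 0.999 and 1.00), with 0.5 counts added for log2 ratios and a threshold of 0.05. As 1 library a side leaves no residual degrees of freedom, edgeR's exact test was the alternative to it; its trended dispersion comes from the same pair, treated as 1 group, and so includes the differences tested. The tests were checked on simulated counts. Sampling noise did not cover the gap between the libraries (chi-square per degree of freedom 9.83), which were kept as separate replicates. Promoter sequences are from RefSeq on GRCm38.p6. Alternatives were TPM, other thresholds and floors, size factors from DESeq2 1.42.0, no TMM, other gene lengths, count filters and pseudocounts, a GC trend removed by lowess (fraction 0.3), and each library alone.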

Additional observations from a re-analysis of the deposited data

How the results depend on the processing

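The number of carriers that were on, 34, was 30 at 1 TPM, 36 at 0.5 CPM, 27 at 5 CPM and 34 with TMM or DESeq2 sizes, and 34 to 35 from 1 library alone. The 4 lost at 1 TPM were Slc6a5, Slc7a11, Slc36a4 and Slc38a3. The number silent, 13, was 6 with no count in both libraries, 12 under 0.1 CPM and 15 to 19 from 1 library alone. The Slc38 share was 37.0% with the longest and 20.8% with the median coding transcript, against 34.6%, and 34.3 to 35.0% from 1 library alone. By all 3 lengths, 8 of the 10 highest carriers were shared: Slc38a2, Slc38a4, Slc3a2, Slc6a6, Slc6a8, Slc7a3, Slc7a5 and Slc7a7. By the exact binomial test 16 carriers were called between the libraries, also with DESeq2 sizes, totals without TMM and no count filter. The number was 15 of 31 from at least 100 counts and 13 after removal of the GC trend (chosen after seeing the data, 11 shared). In edgeR's exact test 1 was called. Of all genes, 23.9% were called by the exact binomial test with its main settings and 0.456% by edgeR's. For the other settings the share of all genes is not given here, so those counts lack a background. The log2 ratio of Slc38a2 was 0.0025 with the GC trend removed, and Slc6a6, Slc6a8, Slc6a15 and Slc38a10 also lost the call while Slc3a2 and Slc7a5 gained one. The causes were not tested. No paired analysis was possible because the series holds 1 group. The test between libraries needs both, so it has no value without either. Depth limits the silent class, since a count of 0 allows up to 0.106 CPM in replicate 1 and 0.124 CPM in replicate 2 (two-sided exact 95% Poisson limit, counting error only). At 3 counts, the most that a silent carrier could have, the limit was 0.252 CPM in replicate 1 and 0.294 CPM in replicate 2.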

Other observations

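Antisense rows beside the carriers, which the symbol rule leaves out as they are not protein-coding, held few reads. Slc36a3os (chr11:55137044-55140193, plus strand) had 23 and 8 counts, beside 15 and 6 for Slc36a3. Slc36a1os and Slc6a19os had no count in either library.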
